A study of Mus musculus with 8 samples.

Results

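The 5 genes followed here are ones that RAW264.7 cells carrying an shRNA against Dis3l2 (shDis3l2) expressed and that the same cells carrying a non-silencing shRNA (shNS) nearly lacked: Umodl1, Fstl5, Xkr5, Angptl2 and Cul9. They are 5 of the 55450 gene rows in the count table, of which 22276 had a count in at least 1 library. The genes were chosen by their measured levels, clear in every shDis3l2 library and close to 0 in every shNS library, so the difference between the lines is given as a description and was not tested. RAW264.7 is a macrophage-like mouse line, and each line was sampled after 4 days, in 3 libraries with doxycycline (1 µg/mL) and 1 library without. Doxycycline is the usual switch for an inducible shRNA, and Dis3l2 encodes an exoribonuclease that degrades uridylated RNA. The sources used here do not say whether either line is a clone or a mixed population.

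The 5 genes belong to unrelated families. Umodl1 encodes a uromodulin-like membrane protein with a zona pellucida (ZP) domain, also called olfactorin and known from mouse olfactory and vomeronasal neurons. Fstl5 encodes a secreted follistatin-like protein best known from the brain. Xkr5 belongs to the XK family, in which the relative Xkr8 scrambles membrane lipids when cells die, while the role of Xkr5 itself is poorly known. Angptl2 encodes a secreted angiopoietin-like glycoprotein that acts on integrins and on inhibitory leukocyte receptors and has been linked to inflammation. Cul9, also called Parc, encodes a large cytoplasmic cullin that binds p53.

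All 5 are protein coding in GENCODE M21 (GRCm38). Umodl1 (ENSMUSG00000054134) lies on the plus strand of chromosome 17 from 30954640 to 31010710, and Cul9 (ENSMUSG00000040327) on the minus strand of the same chromosome from 46500572 to 46546388. Fstl5 (ENSMUSG00000034098) spans chromosome 3 from 76074270 to 76710019 on the plus strand. Xkr5 (ENSMUSG00000039814) lies on chromosome 8 from 18932729 to 18950975 on the minus strand. Angptl2 (ENSMUSG00000004105) lies on chromosome 2 from 33216069 to 33247717 on the plus strand, wholly inside Ralgps1, which is read from the opposite strand and shares no exon base with it. The merged exons of the genes measure 5193 bases (Umodl1), 9264 (Fstl5), 4141 (Xkr5), 6286 (Angptl2) and 12198 (Cul9).

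RefSeq promoter windows (GRCm38.p6, 250 bases before to 50 after a transcription start) matched 4 of the 5 genes. They are shown so that the start regions of genes with 1 on-and-off pattern can be compared, with 1 start per gene, read 5′ to 3′ along the gene's strand. Capitals mark matches on either strand to 8 short motifs. Those of blood cell and signal-driven factors were TGTGGT for the Runt domain family (RUNX), GAAANNGAA for the interferon response element, TGANTCA for the factor AP-1 and GAGGAAG for the myeloid regulator PU.1. Those of general promoter elements were GGGCGG for the so-called GC box, TATAAA for the sequence bound by TBP, and the pentamer CCAAT, named after its own letters. The last, TGACGT, is the core of the cAMP response element. The windows are chr17:30954433-30954732 (plus) for Umodl1, chr3:76074311-76074610 (plus) for Fstl5, chr2:33215711-33216010 (plus) for Angptl2 and chr17:46546339-46546638 (minus) for Cul9.
Umodl1: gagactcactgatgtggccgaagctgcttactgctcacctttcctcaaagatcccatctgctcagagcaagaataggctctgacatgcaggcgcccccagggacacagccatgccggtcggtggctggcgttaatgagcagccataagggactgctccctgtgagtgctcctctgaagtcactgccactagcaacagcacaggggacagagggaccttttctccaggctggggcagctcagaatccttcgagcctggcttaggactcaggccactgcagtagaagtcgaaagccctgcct
Fstl5: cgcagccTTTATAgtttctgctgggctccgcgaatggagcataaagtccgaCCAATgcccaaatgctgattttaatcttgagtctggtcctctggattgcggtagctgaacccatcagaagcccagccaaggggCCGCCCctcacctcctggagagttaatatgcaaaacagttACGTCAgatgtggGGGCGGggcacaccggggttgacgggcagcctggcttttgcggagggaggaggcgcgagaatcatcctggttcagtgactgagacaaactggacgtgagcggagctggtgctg
Angptl2: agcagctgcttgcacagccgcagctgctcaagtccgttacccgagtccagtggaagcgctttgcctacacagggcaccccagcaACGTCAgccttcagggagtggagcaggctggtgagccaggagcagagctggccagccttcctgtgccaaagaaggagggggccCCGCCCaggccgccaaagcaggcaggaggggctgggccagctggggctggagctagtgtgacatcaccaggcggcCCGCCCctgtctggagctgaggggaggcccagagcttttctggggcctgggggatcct
Cul9: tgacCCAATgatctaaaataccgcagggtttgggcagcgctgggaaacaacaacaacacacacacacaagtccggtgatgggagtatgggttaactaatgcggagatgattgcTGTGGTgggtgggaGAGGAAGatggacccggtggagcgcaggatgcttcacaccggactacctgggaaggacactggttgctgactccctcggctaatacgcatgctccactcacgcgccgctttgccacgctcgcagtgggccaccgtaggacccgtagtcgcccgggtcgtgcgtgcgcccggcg

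No motif was present in all 4 of these windows. The Umodl1 window held none of the 8. The RUNX letters stood in the Cul9 window only, as did the PU.1 letters, and 16.8% and 13.6% of the 32851 RefSeq promoter windows hold them. GC boxes were found in the Fstl5 and Angptl2 windows (35.7% of all windows), as was the cAMP response element core (7.51%). The CCAAT box stood in the Fstl5 and Cul9 windows (37.4%) and the TBP motif in the Fstl5 window (13.6%). The interferon response element (8.56%) and AP-1 letters (7.81%) were in none. CpG dinucleotides numbered 23 in the Cul9 window, 15 in Fstl5, 9 in Angptl2 and 7 in Umodl1, against a median of 7 over all windows. A second Fstl5 start listed by RefSeq, on chromosome 3 from 76075333 to 76075632, had 2 CpG dinucleotides and none of the motifs.

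The libraries held 30341847 to 45557831 expected counts and 17388 to 18267 detected genes. Dis3l2 itself stood at 13.5 ± 1.46 CPM in shDis3l2 and 27.9 ± 5.54 CPM in shNS with doxycycline (SD, n = 3 each), and at 28.6 and 29.6 CPM in shDis3l2 and shNS without it. The shNS libraries did not form 1 tight group: across genes, which are not independent, replicate 2 with doxycycline correlated at 0.990 with untreated shNS and at 0.959 and 0.962 with replicates 1 and 3. Nothing in the labels says that replicates came from separate cultures, so p-values measure the spread between these libraries, which may be technical. All 12 macrophage markers listed were above 1 CPM in a library. Their summed level was 7348 to 10747 CPM over the 4 shDis3l2 libraries and 7072 to 12651 CPM over the 4 shNS libraries. Marker lists of fibroblasts, epithelium and neurons summed to at most 0.0762 CPM in any library, B cell markers to 0.178 CPM in shDis3l2 and 0.234 CPM in shNS, endothelial markers to 1.00 and 1.24 CPM, and T cell markers to 2.03 and 3.08 CPM. Cd3e, Cd3g and Cd8a had no count, nor did any of the 5 epithelial markers.

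Umodl1 was strongly expressed in shDis3l2 and almost without reads in shNS. Levels are CPM, that is expected counts scaled to each library's size with TMM factors over the 8 libraries. With doxycycline Umodl1 measured 145, 133 and 82.8 CPM in shDis3l2 replicates 1, 2 and 3, from 6352, 4564 and 2804 counts, against 0, 1 and 0 counts in the 3 shNS libraries. Without doxycycline it measured 85.5 CPM in shDis3l2 (3364 counts) and had no count in shNS. The groups did not overlap, and 1 count stood in all 4 shNS libraries together, or 0.00585% of the 17084 counts in shDis3l2. The ratio of shDis3l2 to shNS with doxycycline was 12350 (95% counting interval 2216 to 487824), and without doxycycline the level was at least 1038-fold higher in shDis3l2. The ratio with doxycycline rests on that 1 count: it was 8088 without shNS replicate 3 and at least 1359.8 without shNS replicate 2, which held the count. These bounds set a gene without a count at a floor of 3 counts per library, 0.0686 to 0.0944 CPM, and intervals and floors cover counting error only.

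Xkr5 had no count in any shNS library. It measured 7.36, 8.90 and 7.98 CPM in shDis3l2 with doxycycline (322, 305 and 270 counts) and 8.87 CPM without it (349 counts). Its replicates were the steadiest of the 5, with a coefficient of variation of 9.58% over the 3 replicates. At the floor of 3 counts per library in shNS, the level in shDis3l2 was at least 89.7-fold higher with doxycycline and at least 108-fold higher without it. A snoRNA gene, Gm22551, lies across 103 exon bases of Xkr5 on the opposite strand and had no count in any library. In bulk RNA a level of this kind cannot tell a few cells with much of the transcript from many cells with little.

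Fstl5 was at 8.64, 17.3 and 16.5 CPM in shDis3l2 with doxycycline (378, 592 and 559 counts), against 0, 1 and 3 counts in shNS. Without doxycycline it was at 16.1 CPM (634 counts) in shDis3l2 and had no count in shNS. Replicate 1 of shDis3l2 was low while the other shDis3l2 libraries lay close together, and Fstl5 had the widest relative spread, 33.8%. The summed counts gave a ratio of 344 with doxycycline, and 901 without shNS replicate 3, which carried 3 of the 4 shNS counts. Without doxycycline the level was at least 196-fold higher.

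Angptl2 differed from the others in that its highest value came from untreated cells. It measured 9.40, 13.8 and 14.0 CPM in shDis3l2 with doxycycline (411, 474 and 473 counts) and 0.0315, 0.0293 and 0.345 CPM in shNS with doxycycline (1, 1 and 12 counts). Without doxycycline it measured 32.9 CPM in shDis3l2 (1295 counts) and 0.0275 CPM in shNS (1 count). One library, shNS replicate 3, held 12 of the 15 shNS counts. With doxycycline the ratio of shDis3l2 to shNS was 87.3, and 400.3 without shNS replicate 3. Without doxycycline it was 1199 (95% counting interval 215 to 47390.1). Ralgps1, the gene that encloses Angptl2, was read at 219 to 394 counts in every library, with no exon in common.

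Cul9 was the only one of the 5 with several counts in each shNS library. It measured 15.7, 12.6 and 13.0 CPM in shDis3l2 with doxycycline (685, 431 and 439 counts) and 0.504, 0.263 and 0.230 CPM in shNS (16, 9 and 8 counts). Without doxycycline it measured 10.8 CPM in shDis3l2 (426 counts) and 0.631 CPM in shNS (23 counts). The counts of the 4 shNS libraries came to 2.83% of those of the 4 shDis3l2 libraries, against 0.565% for Angptl2, 0.185% for Fstl5 and 0.00585% for Umodl1. The ratio of shDis3l2 to shNS was 42.4 with doxycycline and 17.1 without it (95% counting interval 11.3 to 27.3). With 1 doxycycline library left out at a time, the ratio with doxycycline ran from 36.7 to 56.4.

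**Figure D1:**
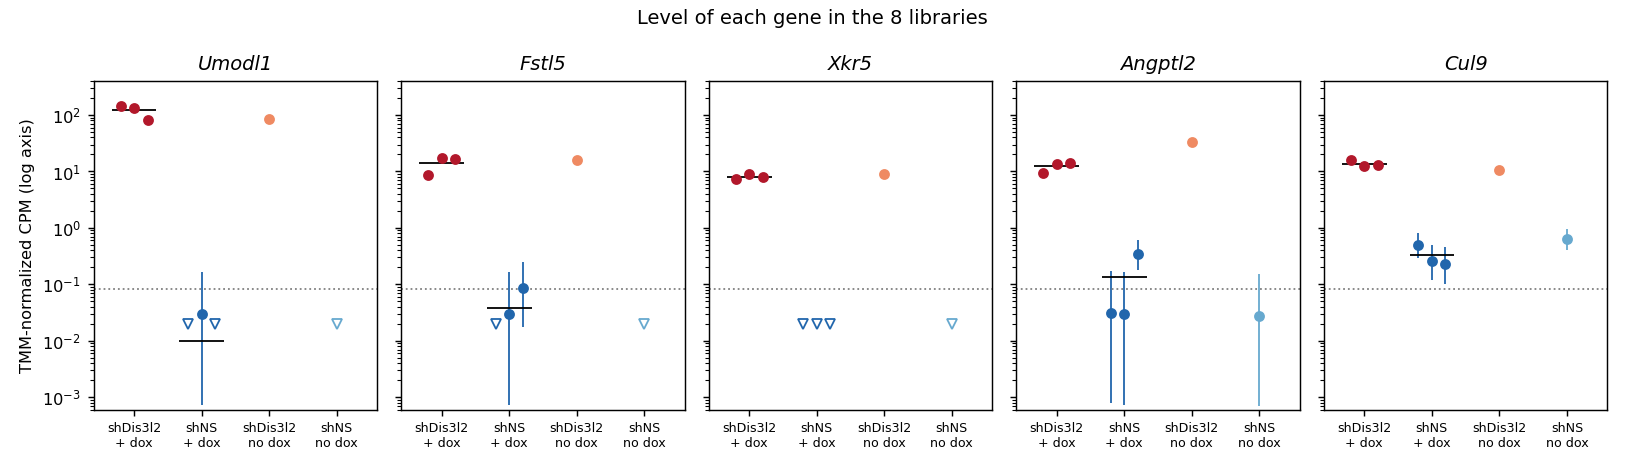
Level of each gene (TMM-normalized CPM, log axis) in the 8 libraries by line and doxycycline (dox): circles are libraries with their 95% counting intervals, black bars are means of 3, open triangles mark libraries with 0 counts at an arbitrary height, and the dotted line is the mean floor of 3 counts. Every shDis3l2 library lies at 7.36 CPM or above and every shNS library at 0.631 CPM or below.

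Per kilobase of merged exon, Umodl1 stood far above the rest in shDis3l2. With doxycycline it averaged 23.2 RPKM (16.0 to 28.0), Angptl2 1.97 (1.49 to 2.22), Xkr5 1.95 (1.78 to 2.15), Fstl5 1.53 (0.933 to 1.86) and Cul9 1.13 (1.03 to 1.28). The ranges of Angptl2, Xkr5 and Fstl5 overlapped, and so did those of Fstl5 and Cul9, while every Cul9 value lay below every Angptl2 and Xkr5 value. Without doxycycline the order was Umodl1 (16.5 RPKM), Angptl2 (5.24), Xkr5 (2.14), Fstl5 (1.74) and Cul9 (0.888). These lengths treat all annotated exons of a gene as used, which the table cannot show.

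Replicate 1 of shDis3l2 with doxycycline did not move the genes 1 way. It held the lowest value of the 3 replicates for Fstl5, Angptl2 and Xkr5, and the highest for Umodl1 and Cul9. Umodl1 in turn was lowest in replicate 3, 1.75-fold below replicate 1. The biological coefficient of variation that edgeR fitted over all 8 libraries was 0.480 for Angptl2, 0.361 for Fstl5, 0.307 for Xkr5, 0.284 for Cul9 and 0.257 for Umodl1. Genes of the same abundance had trend values of 0.337, 0.352, 0.405, 0.360 and 0.234, in that order.

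The genes were picked for clear levels in shDis3l2 both with and without doxycycline, a choice that leaves out genes switched on or off by it in this line. Their doxycycline response is therefore given as a description, with no test. All 8 libraries entered 1 edgeR quasi-likelihood fit of 4 groups, in which the lone untreated library was assumed to vary like the others. Over the 15250 genes tested, 0% were higher and 0% lower at an adjusted p under 0.05. At an unadjusted p under 0.05 there were 504 of the 15250 genes in that fit. That is fewer than the share of 0.05 that passes when no gene differs. At an adjusted p under 0.05 DESeq2 called 65 and limma-voom 0.

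Angptl2 had the largest estimate of the 5. Its mean was 12.4 ± 2.60 CPM with doxycycline (SD, n = 3) and its untreated level 32.9 CPM, and all 3 treated libraries lay below the untreated one. The log2 fold change was -1.41 (SE 0.71, 95% interval -3.12 to 0.30), and it lay between -1.50 and -1.24 under every alternative run. The interval rests on spread fitted over all 8 libraries, including shNS, where Angptl2 had 1, 1 and 12 counts with doxycycline. Within shDis3l2 with doxycycline its coefficient of variation was 21%.

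The other genes had smaller estimates. Umodl1 averaged 120.4 ± 33.1 CPM with doxycycline and 85.5 CPM without it (log2 fold change 0.49, 95% interval -0.39 to 1.38). Cul9 averaged 13.7 ± 1.68 and 10.8 CPM (0.34, -0.59 to 1.27), with all 3 treated libraries above the untreated one. Xkr5 averaged 8.08 ± 0.774 and 8.87 CPM (-0.13, -0.99 to 0.73), and Fstl5 14.1 ± 4.78 and 16.1 CPM (-0.19, -1.53 to 1.16). In shNS the genes were too near the floor for a doxycycline effect to be read.

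**Figure D2:**
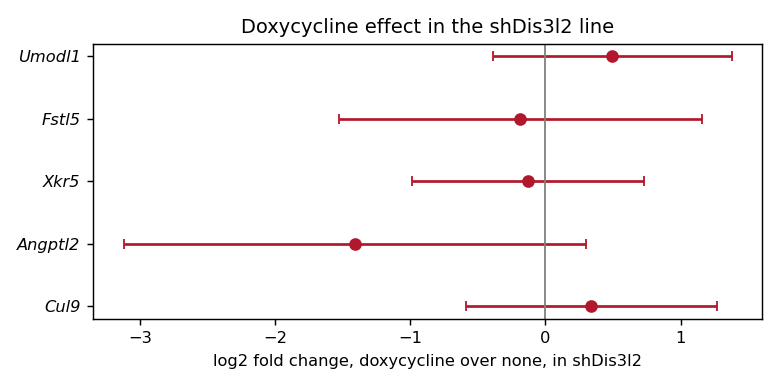
Log2 fold change of each gene in shDis3l2, doxycycline over none, from the edgeR fit of 8 libraries; points are estimates and bars are 95% intervals. The estimate for Angptl2 lies furthest from 0, at -1.41, with the widest interval, -3.12 to 0.30.

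Few genes had this pattern at such a level. With thresholds set after the values were seen, 13 genes qualified and 21 genes showed the reverse. The thresholds were at least 5 CPM in every shDis3l2 library and at most 1 CPM in every shNS library. All 13 were protein coding, though genes of other types fell just short. Gm45540 had 4.67 CPM in shDis3l2 replicate 3 with doxycycline, and the lincRNA AC160336.1 had 1.02 CPM in untreated shNS. The 5 genes described here were among the 13. The other 8 were Runx3, which encodes a Runt domain transcription factor of blood cells, Hpgd, which inactivates prostaglandins, Pdcd1, which encodes the PD-1 receptor, the integrin subunit gene Itga6, the sodium-proton exchanger gene Slc9a7, the Ras GTPase-activating protein gene Rasal3, Apol9a and Tmem132a. Apol9a and Apol9b are close copies, so the split of reads between them is uncertain. The ratio of the doxycycline mean to the untreated level in shDis3l2 ran from 0.377 for Angptl2, the lowest, to 2.86 for Apol9a, with a median of 0.911, and 7 of the 13 were below 1.

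**Figure D3:**
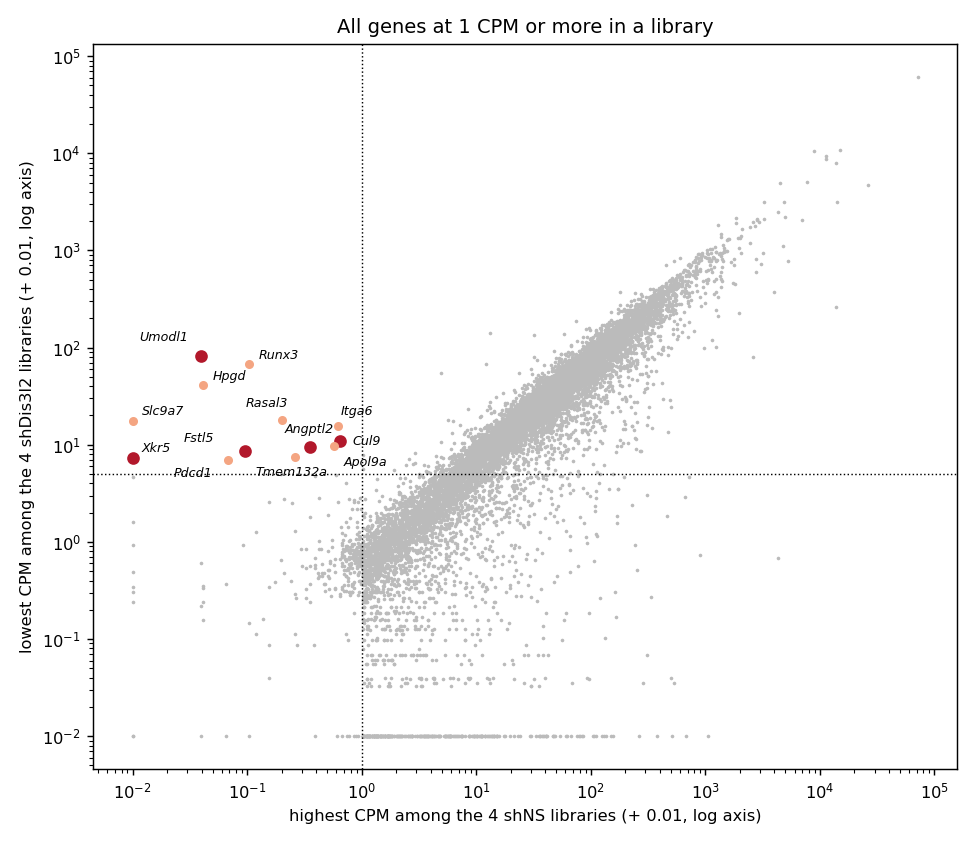
Each of the 13047 genes at 1 CPM or more in a library, by its highest level in shNS (x) and its lowest level in shDis3l2 (y), in CPM + 0.01 on log axes. Dotted lines mark 1 and 5 CPM; dark red points are the 5 genes described and light points the other 8 of the 13 at upper left.

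The genes with the closest profiles over the 8 libraries were found among those with a mean of at least 1 CPM, by the root mean square difference of centred log2(CPM + 0.5) values. The likeness is a description over 8 libraries that share 2 lines. Fstl5 was nearest to Itga6 (0.13), which was likewise lowest in shDis3l2 replicate 1: Itga6 measured 15.7, 25.5 and 29.4 CPM with doxycycline and 28.1 CPM without it. Rasal3 (0.34) and Slc9a7 (0.43) followed for Fstl5. Umodl1 was nearest to Runx3 (0.44), Hpgd (0.61) and Slc9a7 (1.17). Xkr5 and Cul9 were both nearest to Tmem132a (0.32 and 0.29), with Zdhhc23 (0.35) and AC160336.1 (0.41) next for Cul9 and Itga6 (0.36) and Gm45540 (0.38) next for Xkr5. For Xkr5 1 of these 3 stayed among the nearest with a pseudocount of 2. Angptl2 was nearest to Itga6 (0.37), Gm45540 (0.51) and Rasal3 (0.53). Among the 5 themselves the closest pair was Xkr5 and Cul9 (0.295), and Umodl1 was at least 1.55 from each of the others. With shNS near 0 this distance mostly reflects the level in shDis3l2, so genes of similar CPM lie close. Of the 3 shDis3l2 replicates with doxycycline, replicate 1 was lowest for Xkr5 and highest for Cul9.

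Higher levels in shDis3l2 passed the test beside Fstl5 and beside none of the other 4 genes. Among genes within 500 kb, 0 of 9 tested near Umodl1 and 0 of 4 near Xkr5 passed in the comparison of the lines with doxycycline. Near Angptl2 0 of 13 rose and 1 fell, and near Cul9 0 of 29 rose and 3 fell. Near Fstl5 2 of 4 were called higher, 1 of them inside Fstl5, but both passed the low-count filter only through shDis3l2. The test could thus call these 2 higher but not lower, so their calls do not set Fstl5 apart from the other 4 genes. Over all 13752 genes tested with edgeR's quasi-likelihood test (6 doxycycline libraries, adjusted p under 0.05), 2.13% were higher and 4.01% lower in shDis3l2.

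Both genes called higher near Fstl5 are transcripts known only by Gm numbers and lie on its strand. Gm37256, a lincRNA at -73.1 kb from the Fstl5 start, had 34, 44 and 28 counts in shDis3l2 with doxycycline and none in any shNS library, at least 10.6-fold higher (edgeR adjusted p = 0.00962). It had 13 counts in untreated shDis3l2. Gm37897 lies inside Fstl5 and shares no exon base with it; reads from unspliced Fstl5 RNA could still be counted there. It had 15, 31 and 47 counts in shDis3l2 and 1, 0 and 0 in shNS with doxycycline, a ratio of 83.7 (95% counting interval 14.7 to 3342; edgeR adjusted p = 0.0168). Both genes passed the low-count filter only through shDis3l2, so the test could call them higher but not lower. Neither gene reached the test when 1 CPM or more in 3 libraries was required. The call of Gm37897 was lost without shDis3l2 replicate 2 or 3 (adjusted p = 0.0647 and 0.0606). With the replicate number as a block in edgeR, the calls of Gm37256 and Gm37897 were both lost (adjusted p = 0.0585 and 0.0526). The nearest protein-coding gene, Golim4, 117.3 kb before Fstl5, was at -0.05 (SE 0.16) on the log2 scale.

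Agpat5, 41.4 kb from Xkr5, was at -0.01 (SE 0.16) on the log2 scale, and Garnl3, 84.4 kb from Angptl2, at -0.29 (SE 0.53). Cul9 sits between Dnph1 and Srf, 0.9 and 1.9 kb away, which had log2 fold changes of 0.40 (SE 0.22) and 0.14 (SE 0.28) with edgeR adjusted p of 0.361 and 0.843. Ttbk1, a tubulin kinase gene 12.9 kb away, fell to 0.114, 0.146 and 0.0591 CPM in shDis3l2, against 0.661, 3.01 and 0.892 CPM in shNS (edgeR adjusted p = 0.0290), a call lost without any 1 of the shDis3l2 replicates (0.110 to 0.120). Ttbk1 passed the low-count filter only through shNS, so the test could call it lower but not higher. Klc4, a kinesin light chain gene, fell by 1.18 on the log2 scale (adjusted p = 0.0168), a call lost without shDis3l2 replicate 2 or 3 (0.0866 and 0.0774). The angiogenic factor Vegfa, 468.2 kb away, fell by 2.93 (adjusted p = 0.0483), lost in all fits without 1 library except that without shNS replicate 1 (up to 0.197). Vegfa spread widely in shNS with doxycycline (45, 182 and 117 CPM). Without doxycycline it was at 22.7 CPM in shDis3l2 and 31.2 CPM in shNS. Near Angptl2 the ESCRT subunit gene Mvb12b, 482.2 kb away, fell by 1.47 (adjusted p = 0.00885). Beside Umodl1 the sterol exporter Abcg1, 47.0 kb away, was at -1.27 (SE 0.38, adjusted p = 0.107), and Glp1r, 13.8 kb away, had no count. AC165951.1, an antisense gene that crosses the Umodl1 start without sharing an exon base, was read at 241 to 430 counts in every library.

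**Figure D4:**
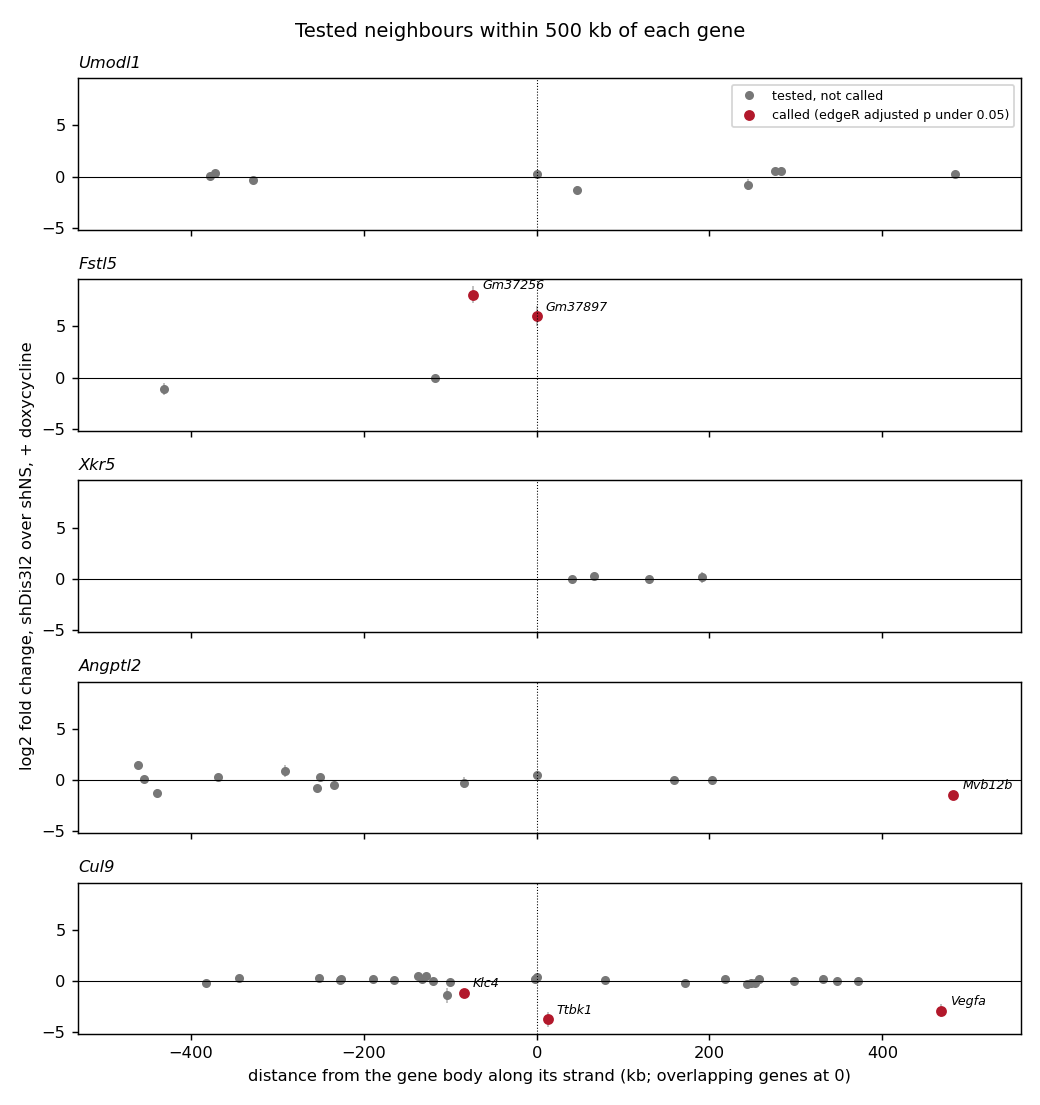
Log2 fold change of shDis3l2 over shNS with doxycycline for every tested gene within 500 kb of each of the 5 genes, by distance in kb along the gene's strand; bars are SE and red points passed edgeR's adjusted p threshold of 0.05. Gm37256 near Fstl5 and Gm37897 inside it were called higher, and both passed the low-count filter only through shDis3l2. The value of Gm37256, without a count in shNS, depends on the prior count of the fit.

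Relatives and partners of the 5 genes were taken in 6 lists, in which 78 genes were tested between the lines. Of these 2.56% rose and 6.41% fell, 7 genes in all, beside 2.13% and 4.01% over all genes. Among those that fell, Tmeff1, Gdf15 and Plscr4 passed the low-count filter only through shNS, so the test could call them lower but not higher. Of the 14 ZP domain genes listed as relatives of Umodl1, 7 had no count in any library and 3 were tested, of which 0 rose and 1 fell. Endoglin (Eng), a coreceptor for TGF-beta ligands, fell to 0.366, 0.379 and 0.679 CPM in shDis3l2, against 1.32, 4.62 and 2.73 CPM in shNS (log2 fold change -2.60, SE 0.54, edgeR adjusted p = 0.0341). The call was lost without any 1 of the shDis3l2 replicates or shNS replicate 3 (adjusted p 0.0628 to 0.162). The median of the 3 log2 fold changes was -0.91, against -0.00 over all genes.

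Among 17 follistatin and SPARC family genes, relatives of Fstl5, 6 had no count and 3 were tested. None rose, and Tmeff1, a membrane protein with follistatin domains, fell to 0, 0.0292 and 0 CPM in shDis3l2, against 1.13, 0.410 and 0.806 CPM in shNS (edgeR adjusted p = 0.0113). Its call was lost without any 1 of the shDis3l2 replicates (0.0528 to 0.0606). In the activin and BMP pathway, which follistatins bind into, 1 of 21 tested genes rose and 1 fell, with a list median of 0.55. Smad7, the inhibitory Smad, rose to 4.30, 7.76 and 7.80 CPM in shDis3l2, against 2.05, 1.79 and 2.42 CPM in shNS (adjusted p = 0.0237), and without doxycycline stood at 8.79 CPM in shDis3l2 and 6.84 CPM in shNS. The stress cytokine Gdf15 fell to 0.0229, 0.0292 and 0 CPM, against 0.472, 3.39 and 0.547 CPM in shNS (adjusted p = 0.0342). The Smad7 call was lost without shDis3l2 replicate 2 or 3 (0.120 and 0.103), and that of Gdf15 without any 1 of the shDis3l2 replicates (0.124 to 0.139). Tmeff1 and Gdf15 entered the test only through their shNS counts.

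Of the XK family Xk, Xkr4, Xkr6 and Xkr7 had no count, and Xkr8 was at -0.46 (SE 0.27, edgeR adjusted p = 0.392). In the whole list of XK genes, scramblases and flippases 0 of 14 tested rose and 2 fell, with a median of -0.06. Plscr1, an interferon-inducible member of the phospholipid scramblase family, fell to 3.45, 2.42 and 2.16 CPM in shDis3l2, against 9.07, 16.8 and 13.1 CPM in shNS (adjusted p = 0.00865). Its relative Plscr4 had no count in shDis3l2 and 2.93, 10.7 and 3.14 CPM in shNS, at least 70-fold lower (adjusted p = 0.0179). Both were likewise low without doxycycline: 2.24 CPM in shDis3l2 and 14.0 CPM in shNS for Plscr1, and 0 and 4.12 CPM for Plscr4. Calls were lost without shDis3l2 replicate 2 for Plscr1 (0.0501) and without any 1 of the shDis3l2 replicates for Plscr4 (0.0510 to 0.0540). Plscr4 entered the test only through its shNS counts.

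No gene of the list drawn up for Angptl2 passed among 8 tested, with a median of -0.07. The lowest p belonged to the leukocyte receptor gene Lilrb4a and to Angptl4, an inhibitor of lipoprotein lipase. Whether the product of Lilrb4a binds Angptl2 was not tested. Pirb, another listed leukocyte receptor gene, was at -1.17 (SE 0.97, edgeR adjusted p = 0.574). Lilrb4a measured 179.5, 84.3 and 132 CPM in shDis3l2 with doxycycline, against 467, 215 and 368 CPM in shNS (log2 fold change -1.41, edgeR adjusted p = 0.0758), and passed without shNS replicate 2 (0.0204). Without doxycycline the order was the other way, with Lilrb4a at 142 CPM in shDis3l2 and 102 CPM in shNS. Angptl4 measured 111, 92.5 and 105 CPM in shDis3l2 with doxycycline, against 16.5, 6.53 and 38.4 CPM in shNS (2.33, adjusted p = 0.0816). Angptl4 passed without shNS replicate 2 or 3 (0.0209 and 0.0196). Without doxycycline Angptl4 was at 4.70 CPM in shDis3l2 and 5.52 CPM in shNS, a log2 fold change with doxycycline of 4.45 within shDis3l2 (SE 1.11; edgeR adjusted p = 1, DESeq2 adjusted p = 7.58e-07). The estimate for Angptl2 was negative.

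Of 29 tested genes of the cullins and their machinery 1 rose and 0 fell, with a median of 0.01. Cul7, the closest relative of Cul9, was at -1.42 (SE 0.74, edgeR adjusted p = 0.345), the scaffold gene Cul1 at 0.10 (SE 0.13) and the RING subunit gene Rbx1 at 0.05 (SE 0.13). Trp53, which encodes p53, rose to 250.4, 207 and 196 CPM in shDis3l2, against 141, 146 and 144 CPM in shNS (0.61, SE 0.14, adjusted p = 0.0478). That call was lost in each of the 6 fits without 1 library (0.0616 to 0.162), and without doxycycline Trp53 was at 185 CPM in shDis3l2 and 177 CPM in shNS.

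**Figure D5:**
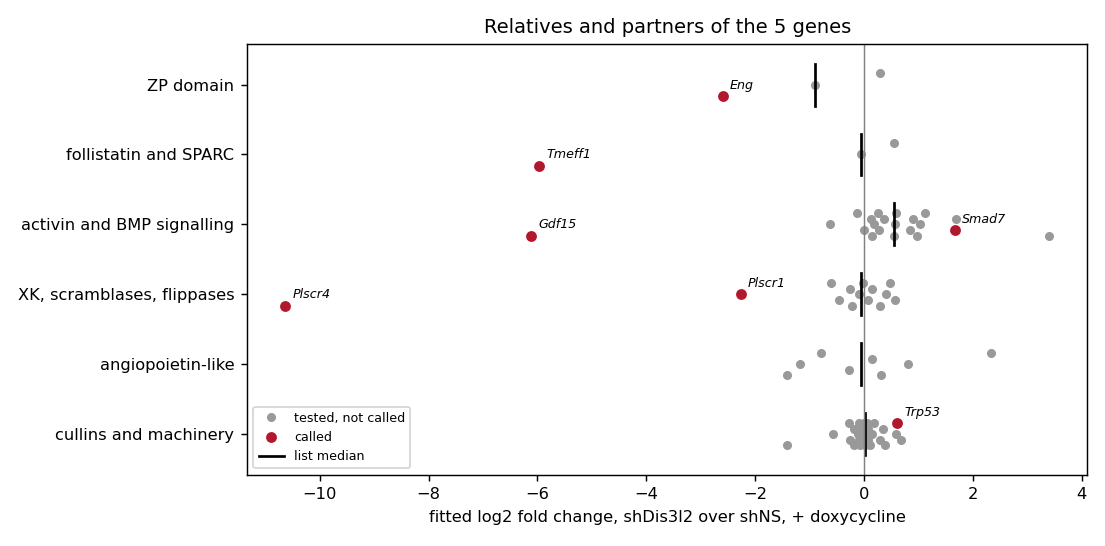
Log2 fold change of shDis3l2 over shNS with doxycycline for the tested members of 6 lists of relatives and partners; red points passed edgeR's adjusted p threshold of 0.05 and black bars are list medians. The value of Plscr4, without a count in shDis3l2, depends on the prior count of the fit.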

How the data were processed

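Total RNA with ribosomal RNA removed was sequenced as stranded libraries, per the labels' protocols. Per gene, expected counts without normalization were deposited in 1 table by the authors. Per the submitters' processing notes the tools were cutadapt, RSEM and STAR 2.7, and the builds mm10 and GRCm38. Which annotation release and strand setting were used is not stated in the labels. All 55450 gene identifiers matched GENCODE M21. RSEM shares reads among genes with common sequence, so values of close copies and overlapping genes are estimates.

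Expected counts were rounded to whole numbers (4.68 to 5.24% of values changed), filtered with filterByExpr (minimum count 10), scaled by TMM and tested with edgeR 4.0.16 (R 4.3.3) by the two-sided quasi-likelihood test with robust estimation and Benjamini-Hochberg adjustment. Lines were compared over 6 libraries and 13752 genes, and the doxycycline effect in shDis3l2 over 15250 genes in a fit of 8 libraries and 4 groups (4 residual degrees of freedom). SE was taken from the fold change and its F value. Alternatives used DESeq2 1.42.0, limma 3.58.1, other scalings and filters, a prior count of 2 in place of 0.125, a replicate block, and fits without each doxycycline library. The script was tested on simulated data, with changes only in well-counted genes that had less spread than the 5 genes here. That setting does not cover genes near the floor. No replicate pair agreed within counting noise (mean chi-square per gene at least 18.1). The 5 genes, the family and marker lists and the tests were chosen with earlier results of these data known. Genes named are the 5, the 3 nearest profiles of each, neighbours within 500 kb that overlap, lie nearest or passed, and up to 4 family members with the smallest adjusted p. Other names were chosen after their values were seen.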

Additional observations from a re-analysis of the deposited data

How the results depend on the processing

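The comparison of the lines called 845 genes by edgeR and 1749 by DESeq2, and 203 to 1157 over the fits without 1 library. Of the family lists 7 genes were called by edgeR, 17 by DESeq2 and 0 to 12 without 1 library. The neighbours gave 6 calls, against 3 when 1 CPM or more in 3 libraries was required, 10 with DESeq2, and 2 to 8 without 1 library. The doxycycline effect in shDis3l2 gave 0 calls, 65 with DESeq2, 1 with the 4 shDis3l2 libraries alone and 0 in every fit without 1 library. The doxycycline estimate for Fstl5 changed sign to 0.07 without shDis3l2 replicate 1, with a range of -0.36 to 0.07 without 1 library. The count of 13 genes on only in shDis3l2 became 7 at 10 CPM or more and at most 1 CPM, and 17 at 2 CPM or more and at most 0.5 CPM, alternatives chosen after the data were seen. Of the 3 nearest profiles of each gene, 2 or 3 stayed with a pseudocount of 0.1 and 1 to 3 with a pseudocount of 2. Library number did not pair the lines: same-numbered libraries had deviations correlated at -0.13, 0.02 and -0.02, and no library correlated best with its own number. With the replicate number as a block 421 genes were called, 5 in the family lists and 3 among the neighbours, without Gm37256 and Gm37897 (adjusted p = 0.0585 and 0.0526). The cause of these changes was not tested. Depth limits the shNS values: the floor of 3 counts used for bounds was 0.0824 to 0.0944 CPM per library, and levels seen below it rest on 1 count. The lone untreated library per line limits every doxycycline estimate.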
